A study of Mus musculus with 28 samples.

Results

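Schwann cells are the glia of peripheral nerves. The levels of 8 genes of these cells and of the myelin they form, out of 28244 genes in the table, were followed in 28 mouse RNA-seq samples. The genes were chosen by name. *Erbb3* encodes a neuregulin receptor and *Dhh*, Desert hedgehog, a ligand secreted by Schwann cells. *Pou3f1* (Oct6) and *Egr2* (Krox20) encode transcription factors, and *Pmp22*, *Mbp*, *Prx* and *Ncmap* encode proteins of the myelin sheath. All 8 were found in the table as 1 row each.

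Axonal neuregulin acts on Erbb3 together with Erbb2 and drives the survival and myelination of Schwann cells, and Dhh acts on neighbouring cells that build the nerve sheath. Pou3f1 marks the promyelinating stage and, with Sox10, leads to the induction of Egr2, which switches on the myelin genes and is required for myelination. Pmp22 and Mbp belong to compact myelin, periaxin (Prx) links the outer Schwann cell membrane to the basal lamina, and Ncmap lies in the non-compact regions of the sheath. None of these genes is limited to Schwann cells. Mbp is also the main myelin protein of oligodendrocytes. Pmp22 is a growth-arrest gene of fibroblasts and epithelia, Pou3f1 is found in neural progenitors and epidermis, Egr2 is an immediate early gene, and Prx is found in lung endothelium.

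The study compared peripheral neural stem cells (pNSCs), which grow out of tissues outside the central nervous system, with brain neural stem cells (NSCs), and asked whether they differ from neural crest stem cells (NCSCs) of the dorsal root ganglion (DRG). The 11 groups were Brain-NSC, Lung-pNSC, Tail-pNSC, Lung and Tail with 2 samples each, Sox2-GFP brain NSCs and Sox2-GFP lung pNSCs with 3 samples each, and Wnt1Cre-mTmG brain NSCs, Wnt1Cre-mTmG Tail pNSCs, Wnt1Cre-mTmG DRG pNSCs and DRG NCSCs with 3 samples each. The labels give the strain C57BL/6 for every sample, whereas by the study's methods its transgenic lines were bred with CD1 or CD1/C3H mice. Adult tissue came from mice of about 4 to 6 weeks and postnatal tissue from about day 1 to day 5 after birth.

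The labels name no mouse line for the first 5 groups. Their names match the study's experiment with Nes-GFP mice, in which GFP is driven by Nestin regulatory elements and pNSCs were grown from GFP+ cells of adult lung and postnatal tail. How the Lung and Tail cells were prepared is not given beyond those names. The Sox2-GFP mice are a knock-in line, and their lung pNSCs came from postnatal lung. In Wnt1Cre-mTmG mice, Cre under Wnt1 elements turns a Tomato reporter to GFP in neural crest cells and their progeny, though not necessarily in all of them. By the study's methods, tail and DRG pNSCs of this line grew from unsorted postnatal cells and were Tomato+ and GFP-, and the DRG NCSCs came from adult wild-type mice without these alleles. Stem cell cultures were started in NSC medium, which holds the growth factors EGF and bFGF, for 3 weeks, and pNSC lines were raised from single picked clusters. The study calls its replicates biological, without saying whether each came from a separate culture or animal, so the p-values measure the spread between these samples only.

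For the 5 genes with an entry in a RefSeq table of transcription starts, 13 windows of 250 bases before a start were read (build GRCm38.p6). The windows below each hold a match to the GTGGGNG core of EGR factors or to the octamer ATGCAAAT of POU factors. They are shown because Egr2 and Pou3f1 are themselves among the genes measured. On both strands, GTGGGNG was found in 28.1% of 32817 mouse windows of the same length, the octamer in 1.60% and the SOX core ACAAAG in 16.5%. Matches are in capitals, and where the capitals do not read GTGGGNG or ATGCAAAT they are its reverse complement. The Dhh window lies at chr15:98898541-98898790 on the minus strand, the Ncmap window at chr4:135398228-135398477 on the minus strand, the Prx window at chr7:27499074-27499323 on the plus strand and the window of the third of 5 Egr2 starts at chr10:67537619-67537868 on the plus strand.
Dhh: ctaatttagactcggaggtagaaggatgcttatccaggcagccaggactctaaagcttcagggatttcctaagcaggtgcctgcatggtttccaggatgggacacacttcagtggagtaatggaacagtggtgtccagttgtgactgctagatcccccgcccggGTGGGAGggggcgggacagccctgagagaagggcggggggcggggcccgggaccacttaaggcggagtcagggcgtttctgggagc
Ncmap: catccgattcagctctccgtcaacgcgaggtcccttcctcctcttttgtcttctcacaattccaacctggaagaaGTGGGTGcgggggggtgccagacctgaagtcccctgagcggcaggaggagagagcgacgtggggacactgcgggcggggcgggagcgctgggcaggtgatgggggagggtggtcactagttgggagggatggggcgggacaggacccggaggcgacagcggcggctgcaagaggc
Prx: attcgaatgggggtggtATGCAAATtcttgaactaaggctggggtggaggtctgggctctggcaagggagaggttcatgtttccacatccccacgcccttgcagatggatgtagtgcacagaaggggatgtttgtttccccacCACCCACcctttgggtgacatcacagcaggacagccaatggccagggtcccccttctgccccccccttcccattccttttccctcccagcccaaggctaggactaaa
Egr2: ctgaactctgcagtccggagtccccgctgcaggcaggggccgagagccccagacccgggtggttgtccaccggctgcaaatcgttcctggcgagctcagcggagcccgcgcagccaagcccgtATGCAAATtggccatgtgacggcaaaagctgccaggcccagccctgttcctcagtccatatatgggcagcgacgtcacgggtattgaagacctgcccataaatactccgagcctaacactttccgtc

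The Dhh and Ncmap windows each hold 1 EGR match, and the Egr2 window holds 1 octamer. The Prx window holds both an EGR match and an octamer. The windows of the fourth and the fifth Egr2 start overlap the one shown and hold the same octamer, and that of the first Egr2 start holds 2 EGR matches. None of the 4 Pmp22 windows held any of the 3 motifs. A match of letters is a description of the sequence and does not show that a factor is bound there. Mbp, Erbb3 and Pou3f1 had no window in that table.

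Total counts ran from 9808246 to 22637031 per sample. The 3 Wnt1Cre-mTmG brain NSC and 3 Wnt1Cre-mTmG DRG pNSC libraries were shallower (9808246 to 11431445) than all others (16700710 or more). With 3 counts taken as the smallest detectable amount, the floor lay between 0.13 and 0.296 cpm (counts scaled to library size with the trimmed mean of M values, TMM). One library stood apart from its group: DRG NCSCs replicate 3 differed from replicates 1 and 2 by a squared difference of 19.9 and 24.9 times the counting variance, against 2.36 between those 2 and 1.1 to 3.09 in all other groups. The NCSC results below are therefore also given without it. The labelled cell types could be checked against lists of markers. *Sox10* and *Ngfr*, which mark neural crest and its glia, stood at 792 ± 132 and 1208 ± 24.6 cpm (SD, n = 3) in the DRG NCSCs. The cell type label of these 3 samples reads NSC, and they were grouped by their titles, which read NCSCs. Sums of 6 neural stem cell markers lay between 3156 and 5278 cpm in each brain NSC and pNSC library, where all 6 had a group mean of at least 1 cpm, and between 1427 and 1814 cpm in the DRG NCSCs, where 3 of the 6 did. The Tail libraries summed to 73447 to 75363 cpm for 6 fibroblast markers and to 7122 to 7291 cpm for 6 keratinocyte markers, and the Lung libraries to 31247 to 31918 cpm for 6 lung epithelial markers. These are bulk samples, so fewer cells of a type and less RNA per cell cannot be told apart.

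*Erbb3* spanned the widest range of the 8 genes. It is the neuregulin receptor of the Schwann cell lineage (chr10:128567523-128589652, minus strand). DRG NCSCs held 978, 982 and 848 cpm (14539 to 21131 counts), for a mean of 936 ± 76.8 cpm (SD, n = 3). Tail cells held 109 and 103 cpm, and Lung cells 80.5 and 78.8 cpm. All pNSC and brain NSC groups lay below these by a wide margin: the highest was Sox2-GFP brain NSCs with 1.06 ± 0.128 cpm (16 to 27 counts), and Tail-pNSC had 1 count in replicate 1 and 0 in replicate 2, below the floor of 3 counts (0.152 to 0.171 cpm in these libraries). No sample of the 3 upper groups overlapped the next group in the order. Below Sox2-GFP brain NSCs the order rested on 0 to 12 counts a library, and neighbouring groups mostly overlapped.

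*Dhh*, at chr15:98891152-98898540 on the minus strand, was also highest in DRG NCSCs, at 74.5, 75 and 67.8 cpm (72.4 ± 4.02, SD, n = 3). The next group was not a tissue but a brain culture. Wnt1Cre-mTmG brain NSCs held 15.3, 16 and 15 cpm (165 to 178 counts), whereas the other brain groups held 0.0487 ± 0.0689 cpm (Brain-NSC, 0 and 2 counts) and 0.25 ± 0.0885 cpm (Sox2-GFP brain NSCs, 3 to 8 counts). Tail cells held 6.01 ± 0.642 cpm and Lung cells 2.84 ± 0.053 cpm (n = 2 each). Every pNSC group lay under 1 cpm, with 0 to 21 counts a library. The first 4 groups in this order did not overlap one another. Exons of *Dhh* share 546 bases with *Rhebl1* on the same strand and 1107 bases with the antisense gene *Gm49442*. Whether reads were counted by strand is not given, so reads of the opposite strand cannot be told apart. *Rhebl1*, looked up after the *Dhh* values had been seen, was highest in DRG NCSCs as well (9.15 ± 0.726 cpm) and stood at 2.77 ± 0.309 cpm in Wnt1Cre-mTmG brain NSCs.

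*Pou3f1* (chr4:124656807-124660655, plus strand), the promyelinating POU factor, had another order. It was lowest of all groups in Lung and at 7.46 cpm or more in each other group. DRG NCSCs held 197, 218 and 231 cpm, followed by Wnt1Cre-mTmG DRG pNSCs with 170, 171 and 169 cpm and Wnt1Cre-mTmG brain NSCs with 91.5, 88.8 and 89.99 cpm. Brain-NSC (58.2 ± 1.39 cpm) and Tail-pNSC (57.3 ± 1.73 cpm) overlapped, as did Lung-pNSC (30.6 ± 0.144 cpm) and Tail (29.8 ± 2.64 cpm). The cultures ended with Wnt1Cre-mTmG Tail pNSCs at 11.8, 12.3 and 12.3 cpm and Sox2-GFP lung pNSCs at 7.46 ± 0.462 cpm, while Lung cells had 7 and 2 counts. Cultures from the same organ thus lay far apart: Tail pNSCs at 57.3 and 12.1 cpm, lung pNSCs at 30.6 and 7.46 cpm, and brain NSCs at 58.2, 90.1 and 22.0 cpm in the 3 experiments. An antisense gene, *Gm2164*, shares 330 exon bases with *Pou3f1*, with the same limit on strand.

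*Egr2* (chr10:67535475-67542188, plus strand), the master regulator of peripheral myelination, was highest in Tail cells at 142 and 146 cpm (2532 and 2294 counts). Lung cells followed with 28 and 27.9 cpm. The other 9 groups had means of 2.33 to 12.1 cpm, and DRG NCSCs, at 10.2, 9.88 and 8.98 cpm, were the third of these and overlapped both of their neighbours. The NCSCs, highest of all in *Erbb3*, *Dhh* and *Pou3f1*, were not above every stem cell culture in *Egr2*. Sox2-GFP brain NSCs were lowest, with 2.31, 2.51 and 2.18 cpm.

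The myelin proteins fell into 2 patterns. *Pmp22* (chr11:63128982-63159547, plus strand) was high in Lung (449 and 449 cpm), Tail (371 and 375 cpm) and DRG NCSCs (252, 250 and 241 cpm) and lay between 13.1 and 29.0 cpm in each brain NSC and pNSC group. *Mbp*, on chromosome 18, had the same 3 groups on top, with 222 and 219 cpm in Tail, 70.9 and 69.5 cpm in Lung and 40.0, 42.6 and 38.7 cpm in DRG NCSCs. No sample of these 3 groups overlapped another group in either gene. Among the cultures, *Mbp* was highest in Sox2-GFP brain NSCs (3.96 ± 0.514 cpm) and lowest in Brain-NSC, where both libraries had 3 counts.

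*Prx* and *Ncmap* were tissue genes here. *Prx* (chr7:27499324-27520214, plus strand), which encodes periaxin, stood at 311 and 299 cpm in Lung and 103 and 101 cpm in Tail. DRG NCSCs, with 13.2, 12.2 and 14.6 cpm, overlapped Wnt1Cre-mTmG Tail pNSCs, with 11.6, 12.2 and 13.6 cpm. An antisense gene, *Gm15541*, shares 300 exon bases with *Prx*. *Ncmap* (chr4:135369576-135398227, minus strand) reached 10 cpm in Tail alone, at 45.1 and 42.1 cpm (803 and 659 counts). Lung held 2.23 and 1.68 cpm, DRG NCSCs held 0.278, 0.567 and 0.758 cpm (6 to 13 counts), and each other group had a mean of 0.171 cpm or less, with 0 to 6 counts a library.

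**Figure D1:**
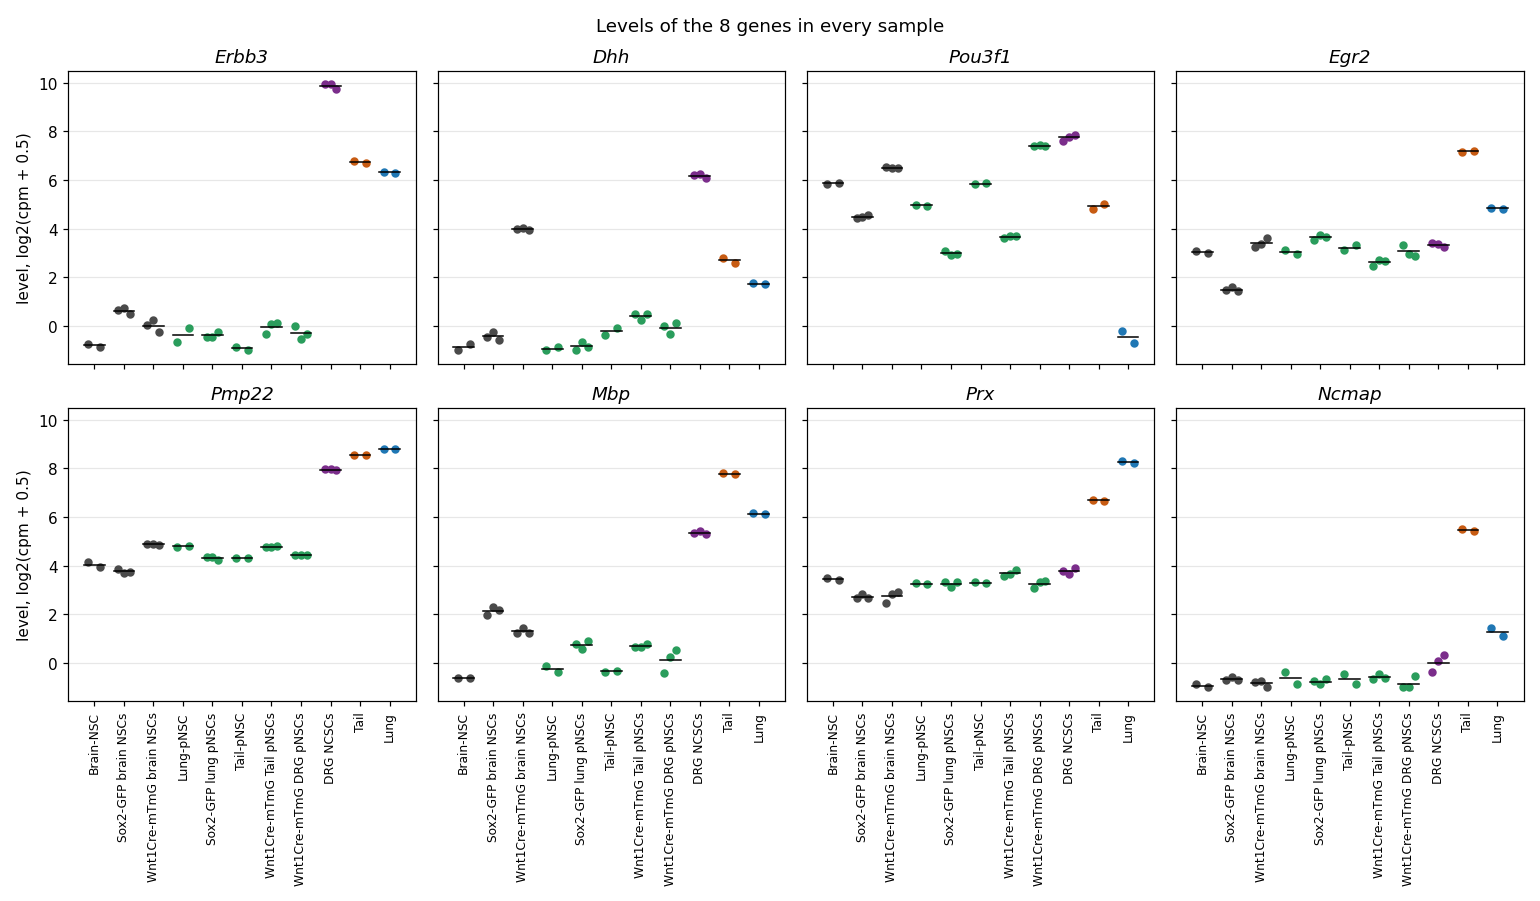
Level of each of the 8 genes in every sample, as log2(cpm + 0.5), in 11 groups of 2 or 3 samples. Points are samples and the bar is their mean on this scale; brain NSCs are dark grey, pNSCs green, DRG NCSCs purple, Tail orange and Lung blue. *Erbb3*, *Pmp22* and *Mbp* are high in DRG NCSCs, Tail and Lung, *Ncmap* in Tail, and *Pou3f1* is high in DRG NCSCs and most cultures but lowest in Lung.

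Levels of different genes were compared per kb of annotated exon, since a longer gene gives more reads. In DRG NCSCs *Erbb3* was highest at 156 cpm per kb, followed by *Pmp22* at 105, *Pou3f1* at 56.0 and *Dhh* at 16.5, against 4.77 for *Mbp*, 2.85 for *Egr2*, 2.39 for *Prx* and 0.24 for *Ncmap*. *Pmp22* was high in Tail cells too, where it stood first at 158 cpm per kb. *Egr2* followed there at 42.5, *Mbp* at 26.1 and *Ncmap* at 19.6, whereas *Pou3f1* stood at 7.74 and *Dhh* at 1.37. In Lung cells *Pmp22* (191 cpm per kb) and *Prx* (54.7) led, and *Pou3f1* was last at 0.0656. Between Tail and DRG NCSCs, the order of *Erbb3* and *Egr2* was reversed: *Egr2* was above *Erbb3* (17.6) in Tail.

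**Figure D2:**
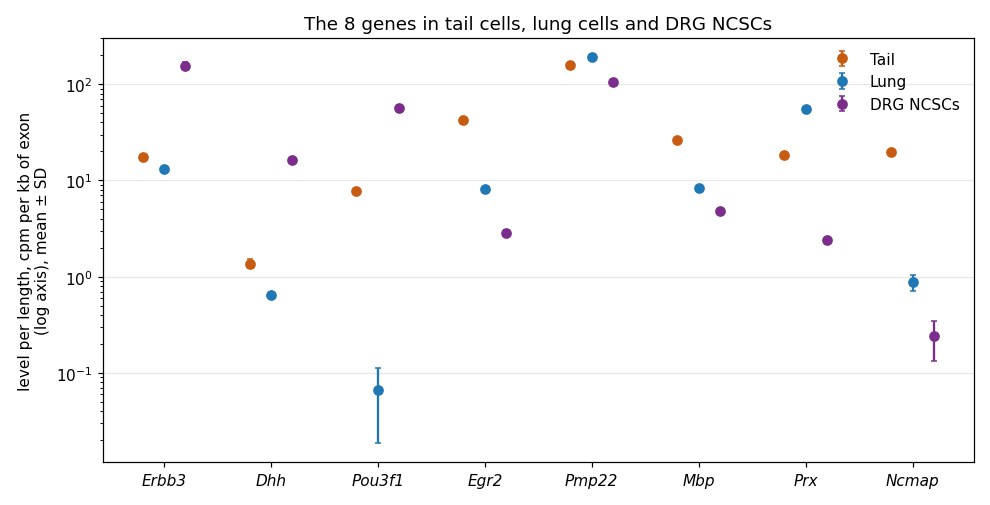
Mean level per kb of exon (cpm per kb, log axis, bars are SD) of the 8 genes in Tail and Lung cells (n = 2 each) and DRG NCSCs (n = 3). *Erbb3*, *Dhh* and *Pou3f1* are highest in DRG NCSCs, and *Egr2*, *Mbp* and *Ncmap* are highest in Tail.

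The first comparison within an experiment asked how the NCSCs differ from the stem cells of the Wnt1Cre-mTmG mice. A gene was called at an adjusted p under 0.05 (edgeR quasi-likelihood test, 2-sided, adjusted over all genes tested) and a log2 fold change of at least 1 in size. The SE given for a log2 fold change is its size divided by the square root of the test's F. On few counts this SE can be smaller than counting error alone, as for *Erbb3*, with 4 to 7 counts a library in Wnt1Cre-mTmG brain NSCs. *Erbb3* passed the filter on counts through its level in DRG NCSCs, so a difference from the other groups of this experiment was built in. *Ncmap* was too low for that filter, so 7 of the 8 genes were tested. Of these, 6 were higher in DRG NCSCs than in Wnt1Cre-mTmG brain NSCs, where 36.9% of all 14448 genes tested were called and 22.1% were higher. *Erbb3* was higher by a log2 fold change of 10.83 ± 0.12 (SE, adjusted p = 2.73e-21), *Mbp* by 4.36 ± 0.13 (1.7e-15), *Pmp22* by 3.10 ± 0.043 (4.78e-20) and *Dhh* by 2.25 ± 0.069 (2.66e-15). *Pou3f1* was higher by 1.27 ± 0.052 (adjusted p = 1.65e-13) and *Prx* by 1.10 ± 0.13 (4.4e-07), and the *Prx* call was lost when Wnt1Cre-mTmG brain NSCs replicate 1 was left out (0.96). *Egr2* did not differ past the threshold, with a log2 fold change of -0.05 ± 0.13 (adjusted p = 0.725).

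The NCSCs differed from both pNSC groups of the same experiment in the ligand and the compact myelin genes. For the receptor gene *Erbb3* a difference was built in by the filter on counts. Its calls are counted below but are not read as a result. In Wnt1Cre-mTmG Tail pNSCs 5 of 7 genes were lower than in DRG NCSCs (background 37.9% called, 22.6% lower): *Erbb3* by a log2 fold change of -10.91 ± 0.11, *Dhh* by -6.43 ± 0.099, *Mbp* by -5.18 ± 0.12, *Pou3f1* by -4.16 ± 0.062 and *Pmp22* by -3.20 ± 0.04 (edgeR adjusted p from 8.15e-22 to 5.58e-17). In Wnt1Cre-mTmG DRG pNSCs, which grew from the same ganglia but in another mouse line and at another age, 4 of 7 were lower (38.3% called, 23.3% lower): *Erbb3* by -11.41 ± 0.13, *Dhh* by -7.28 ± 0.13, *Mbp* by -6.03 ± 0.16 and *Pmp22* by -3.56 ± 0.045. *Pou3f1* lay close together there, at 170 ± 1.22 cpm in the pNSCs and 215 ± 17.2 cpm in the NCSCs (log2 fold change -0.35 ± 0.049, adjusted p = 3.37e-06, under the 2-fold limit). *Egr2* and *Prx* were not called in either comparison. Without DRG NCSCs replicate 3, none of the 21 fold changes of these 3 comparisons moved by more than 0.0666 and no call was lost. For *Ncmap*, which was not tested, the 3 NCSC libraries held 31 counts in all against 2 in Wnt1Cre-mTmG brain NSCs, a ratio of 8.7 with a 95% interval of 2.21 to 75.04 that covers counting error only.

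Markers of fibroblasts, leukocytes and endothelium, and some neuronal genes, moved with these differences. The fibroblast and leukocyte sums ran from 6956 to 7064 cpm and from 587 to 620 cpm in DRG NCSCs, against 466 to 478 and 0.874 to 1.33 cpm in Wnt1Cre-mTmG Tail pNSCs and 15.9 to 17.3 and 2.86 to 3.05 cpm in Wnt1Cre-mTmG DRG pNSCs. All 6 fibroblast markers had a mean of at least 1 cpm in the NCSCs, and 2 of the 6 leukocyte markers, among them *Cd3e*, had no count. The neuronal genes *Prph* and *Tubb3* stood at 154 ± 8.80 and 300.2 ± 7.64 cpm in the NCSCs, against 0.298 to 0.340 and 11.3 to 22.8 cpm as means of the 3 Wnt1Cre-mTmG groups. Both are from a list of 6 satellite glia and neuron markers whose sum went the other way. It ran from 665 to 701 cpm in the NCSCs, against 3248 to 3821 cpm in the 3 Wnt1Cre-mTmG groups, where *Fabp7* was highest. The 6 endothelial markers summed to 25.8 to 30.5 cpm, against 2.66 to 4.03 cpm in those groups, with *Cdh5* at 22.7 ± 3.24 against 0.117 cpm or less. The part of these cell types in the result was not tested. Of the 12 oligodendrocyte lineage markers, 8 had a mean of at least 1 cpm in the NCSCs, with a sum of 700 to 731 cpm against 2605 to 5120 cpm in each brain NSC and pNSC library, and *Mog* had no count.

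**Figure D3:**
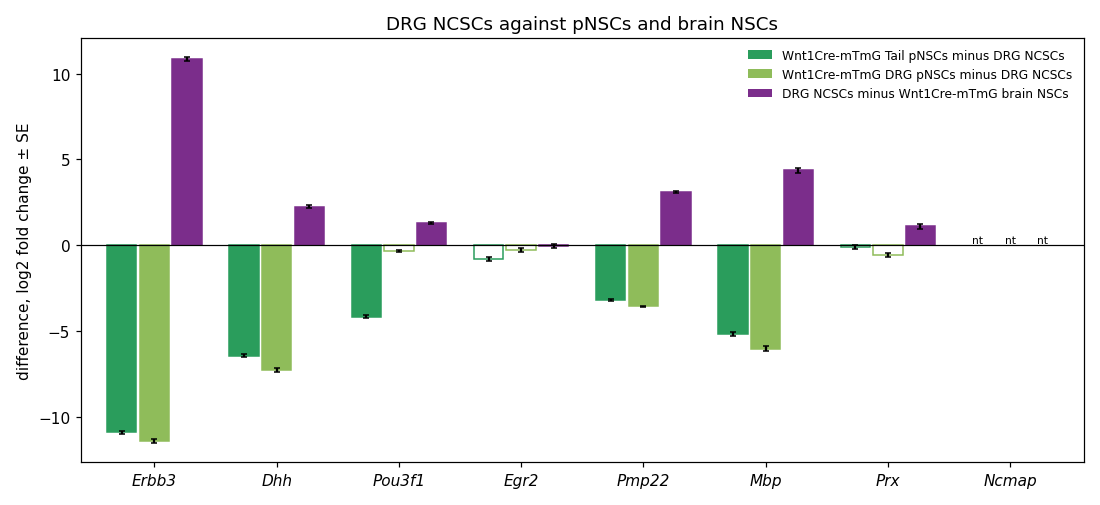
Difference (log2 fold change, bars are SE from the test's F) of the 8 genes between DRG NCSCs and the other groups of the Wnt1Cre-mTmG experiment (n = 3 each). On few counts these bars can be smaller than counting error. Filled bars were called and open bars were not; nt, not tested. *Erbb3*, *Dhh*, *Pmp22* and *Mbp* are far below the NCSC level in both pNSC groups, and *Pou3f1* is far below it in Tail pNSCs only. For *Erbb3* a difference from the NCSCs was built in by the filter on counts.

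The NCSCs were then set against the other 7 groups as well, in a fit of all 28 samples. Experiment and group cannot be told apart in those 7 comparisons. *Erbb3* and *Dhh* were higher in DRG NCSCs than in each of the 10 other groups, with log2 fold changes of 3.14 (against Tail) or more for *Erbb3* and 2.23 (against Wnt1Cre-mTmG brain NSCs) or more for *Dhh*. Of all genes, 39.4% were called against Tail-pNSC, 39.2% against Brain-NSC, 38.7% against Lung-pNSC, 37.5% against Sox2-GFP lung pNSCs, 37.3% against Sox2-GFP brain NSCs, 37.1%, 36.7% and 35.5% against the Wnt1Cre-mTmG Tail pNSCs, DRG pNSCs and brain NSCs, 37.8% against Tail and 46.7% against Lung. The shares higher in the NCSCs were, in the same order, 25.3%, 24.2%, 23.8%, 23.4%, 22.2%, 22.7%, 22.7%, 21.5%, 14.7% and 18.2%, and 23.1% and 28.4% were lower than in Tail and Lung. *Pou3f1* was higher than in 9 groups and not called against Wnt1Cre-mTmG DRG pNSCs. *Mbp* and *Pmp22* were higher than in each of the 8 cultures, while *Mbp* was lower than in Tail (-2.45 ± 0.055) and the other differences from Tail and Lung were under the limit. *Egr2* was called higher against Sox2-GFP brain NSCs only (2.05 ± 0.13), lower than in Tail (-3.89 ± 0.077) and Lung (-1.52 ± 0.092), and not called against the other 7 groups. *Prx* was higher than in Sox2-GFP and Wnt1Cre-mTmG brain NSCs, lower than in Tail (-2.95 ± 0.068) and Lung (-4.52 ± 0.064), and not called against 6 groups. *Ncmap* was lower than in Tail (-6.38 ± 0.18) and Lung (-1.91 ± 0.33) and called higher than in each of the 8 cultures, on 6 to 13 counts a library. It had failed the filter in the Wnt1Cre-mTmG fit, and each library of those cultures had under 10 counts of it. Nothing is therefore read from its calls against the cultures. Without DRG NCSCs replicate 3, only 1 of these 80 results changed side: *Ncmap* against Lung-pNSC, from 1.49 to 1.20 (edgeR adjusted p = 0.081). The *Ncmap* call was also lost against Lung-pNSC without Lung-pNSC replicate 2 (0.87, adjusted p = 0.222) and against Tail-pNSC without Tail-pNSC replicate 2 (1.15, 0.163).

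Against the cells of the tissue they grew from, pNSCs had *Egr2*, *Pmp22* and *Prx* at lower levels. In Tail-pNSC 7 of the 8 genes were lower than in Tail, where 46.7% of 16948 genes were called and 32.6% were lower. *Dhh*, *Erbb3*, *Mbp* and *Ncmap* passed the filter of this fit through Tail or Lung. For these genes a lower level in the pNSCs was built in, so their calls, which the count of 7 includes, are not read as a result. *Mbp* fell from 221 ± 2.12 to 0.295 ± 0.0131 cpm (log2 fold change -9.60 ± 0.12), *Egr2* from 144 ± 2.95 to 8.85 ± 1.04 cpm (-4.10 ± 0.08) and *Pmp22* from 373 ± 2.55 to 19.6 ± 0.0982 cpm (-4.33 ± 0.048). *Prx* was lower by -3.53 ± 0.071 and *Ncmap* by -8.36 ± 0.24 (659 and 803 counts against 1 and 4). *Erbb3* had 1 count in the Tail-pNSC libraries against 3557 in Tail, a ratio of 4194 with a 95% counting interval of 752 to 165718. *Dhh* was lower by -4.06 ± 0.35 (edgeR adjusted p = 3.92e-30). For *Erbb3*, *Mbp*, *Pmp22*, *Egr2* and *Prx* the adjusted p was too small to be represented. *Pou3f1* alone went the other way, at 57.3 cpm in Tail-pNSC and 29.8 cpm in Tail (0.86 ± 0.073, adjusted p = 5.96e-32), under the 2-fold limit.

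Lung pNSCs gave the same directions in both experiments, which share the 2 Lung samples. In Lung-pNSC 7 genes were lower than in Lung (55.0% of genes called, 34.9% lower), and in Sox2-GFP lung pNSCs 7 genes were lower as well (56.3% called, 34.9% lower). *Dhh*, *Erbb3*, *Mbp* and *Ncmap* passed the filter of the first fit through Tail or Lung, and *Dhh* and *Ncmap* that of the Sox2-GFP fit through Lung. For these genes a lower level in the pNSCs was built in, so their calls, which the counts of 7 include, are not read as a result. *Erbb3* was lower by -8.14 ± 0.16 and -8.15 ± 0.12 in the 2 comparisons, *Mbp* by -7.62 ± 0.15 and -5.88 ± 0.1, *Prx* by -5.10 ± 0.061 and -5.09 ± 0.044, *Pmp22* by -4.07 ± 0.045 and -4.56 ± 0.035, *Ncmap* by -3.44 ± 0.47 and -4.34 ± 0.48, and *Egr2* by -1.87 ± 0.1 and -1.23 ± 0.08. *Dhh* had 1 and 4 counts in all libraries of the pNSC groups against 98 in Lung, ratios of 114 (95% counting interval 19.9 to 4536) and 46.9 (17.7 to 175). *Pou3f1* was called higher in both, by 6.80 ± 0.21 and 4.78 ± 0.28 (20.2% and 21.3% of all genes were higher). The tissue cells and the pNSCs also differed in the markers of many other cell types: in Lung, 6 endothelial markers summed to 4600 to 4689 cpm and 6 leukocyte markers to 4388 to 4403 cpm, against 2.6 to 4.24 and 2.25 to 4.0 cpm in the lung pNSCs. *Cdh5* and *Cldn5*, defining endothelial genes, had no count in either pNSC group, whereas *Kdr* of the same list stood at 1.89 ± 0.798 cpm in Lung-pNSC and 2.48 ± 0.555 cpm in Sox2-GFP lung pNSCs. In Tail, 6 endothelial markers summed to 906 to 925 cpm, against 7.55 to 8.11 cpm in Tail-pNSC. The part of these cell types in the levels of *Prx*, *Pmp22*, *Mbp* and the other genes was not tested.

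**Figure D4:**
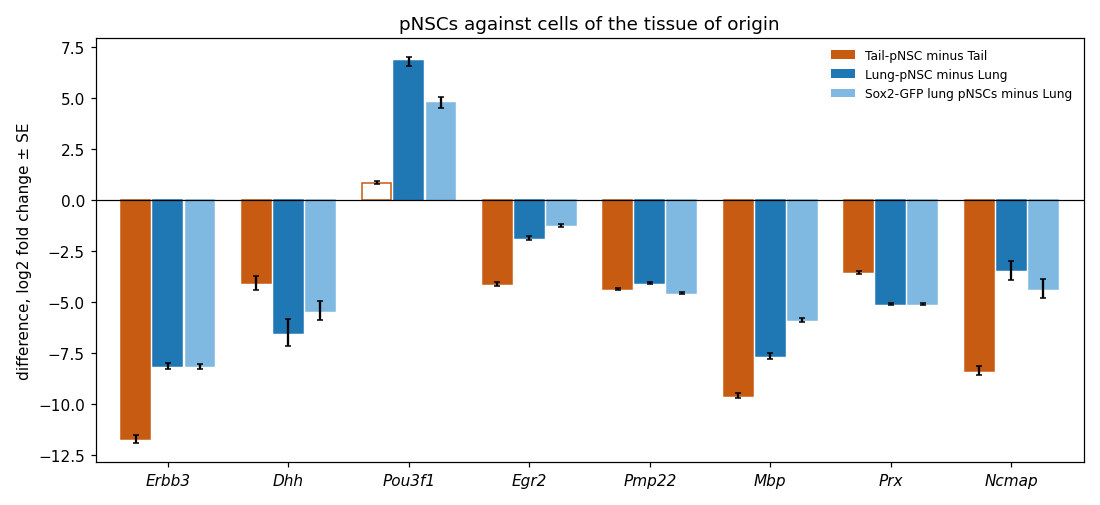
Difference (log2 fold change, bars are SE from the test's F) of the 8 genes between pNSCs and the cells of their tissue. On few counts these bars can be smaller than counting error. Filled bars were called, the open bar was not; the 2 lung comparisons share the 2 Lung samples, and Tail and pNSC groups hold 2 or 3 samples. All genes but *Pou3f1* are lower in pNSCs. For *Dhh* and *Ncmap*, and for *Erbb3* and *Mbp* in Tail-pNSC and Lung-pNSC, this was built in by the filter on counts.

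The tissues themselves differed in 6 of the 8 genes (43.4% of all genes called; 20.5% higher in Tail and 22.9% lower). Tail cells were higher in *Pou3f1* (6.85 ± 0.21), *Ncmap* (4.52 ± 0.15), *Egr2* (2.43 ± 0.066), *Mbp* (1.71 ± 0.051) and *Dhh* (1.14 ± 0.24, edgeR adjusted p = 4.02e-06). They were lower in *Prx* (-1.52 ± 0.042). *Erbb3* (0.47 ± 0.06) and *Pmp22* (-0.21 ± 0.033) were under the limit. By the labels' protocol tail cells came from postnatal mice, whereas the age behind the Lung samples is not given, so organ and age cannot be told apart.

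Between pNSCs and brain NSCs the number of these genes called varied between comparisons. Lung-pNSC had 0 of 8 called against Brain-NSC by edgeR (8.71% of all genes were called) and 0 by DESeq2. *Pmp22* was higher by less than 2-fold (27.4 ± 0.583 against 16.0 ± 1.62 cpm, 0.77 ± 0.072, edgeR adjusted p = 7.47e-26) and *Pou3f1* lower by less than 2-fold (-0.94 ± 0.07, 1.33e-39). Tail-pNSC had 1 called (10.9% of all genes, 4.31% higher), *Dhh*, on 5 and 9 counts against 0 and 2, a ratio of 7.57 with a 95% counting interval of 1.74 to 68.6. These counts are all under the filter's minimum of 10, and *Dhh* entered the fit through its levels in Tail and Lung, so nothing is read from this call. It was lost when Tail-pNSC replicate 2 or Brain-NSC replicate 1 was left out (edgeR adjusted p = 0.11 and 0.138), and in a fit of only these 2 groups *Dhh* was not tested. Between the 2 pNSC groups (12.9% called, 5.00% higher in Tail-pNSC and 7.86% lower) *Dhh* was called higher in Tail-pNSC, with 14 counts against 1 (ratio 14.8, interval 2.25 to 624), and *Erbb3* lower, with 1 count against 11. Both genes had under 10 counts in each of these libraries and likewise entered the fit through Tail and Lung, so nothing is read from these calls either. That of *Erbb3* was lost without replicate 2 of either group and that of *Dhh* without Lung-pNSC replicate 1, and neither gene was tested when only these groups were fitted.

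In the Wnt1Cre-mTmG experiment *Dhh* was lower than in brain NSCs in both pNSC groups, by -4.19 ± 0.13 in Tail pNSCs (edgeR adjusted p = 1.58e-14; 18.2% of genes called, 9.05% lower) and by -5.03 ± 0.18 in DRG pNSCs (3.45e-13; 9.53% called, 6.41% lower). The brain libraries were the ones with 165 to 178 counts of *Dhh*, against 15 to 21 and 3 to 6. *Pou3f1* was lower in Tail pNSCs (-2.89 ± 0.065) and *Mbp* in DRG pNSCs (-1.67 ± 0.31, on 3 to 10 counts against 21 to 23). In the direct comparison of Tail with DRG pNSCs only *Pou3f1* was called, at -3.80 ± 0.063 (18.0% of genes called, 7.61% lower). *Prx* was close to the limit in Tail pNSCs against brain NSCs, at 0.99 ± 0.13, and was called at 1.01 to 1.09 when Tail pNSCs replicate 1 or 2 or brain NSCs replicate 2 or 3 was left out.

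In the Sox2-GFP experiment 5 of 8 genes differed between lung pNSCs and brain NSCs (15.7% called, 5.76% higher and 9.99% lower). *Egr2* was higher in the pNSCs, at 11.1, 12.9 and 12.3 cpm against 2.31, 2.51 and 2.18 cpm (2.36 ± 0.12, edgeR adjusted p = 3.36e-81). *Erbb3* (-1.93 ± 0.36), *Mbp* (-1.73 ± 0.18) and *Pou3f1* (-1.56 ± 0.083) were lower. *Dhh* was called lower on 4 counts against 15, a ratio of 4.21 (interval 1.34 to 17.4), and the call was lost when Sox2-GFP brain NSCs replicate 2 or Sox2-GFP lung pNSCs replicate 1 or 3 was left out. Each of these libraries had under 10 counts of *Dhh*, which entered the fit through its level in Lung, so nothing is read from that call. The fall of *Erbb3* was from 1.06 to 0.276 cpm, so both groups were low. *Egr1* and *Egr3*, relatives of *Egr2*, were higher in the lung pNSCs too (268 ± 3.15 against 58.6 ± 1.39 cpm, and 10.4 ± 0.697 against 1.82 ± 0.29 cpm).

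The difference between pNSCs and brain NSCs was itself compared between experiments. In a test of the interaction over all 28 samples, called at an adjusted p under 0.05, the tail difference was more positive in the Wnt1Cre-mTmG mice for *Prx* and more negative for *Dhh*, *Pou3f1*, *Mbp*, *Egr2* and *Pmp22*. This was called for 48.7% of all genes (24.5% more positive, 24.2% more negative). The lung difference was more positive in the Sox2-GFP mice for *Egr2* and *Prx* and more negative for *Erbb3*, *Mbp* and *Pou3f1*, against 46.9% of all genes (24.6% and 22.2%). With shares this high over all genes, the counts of 6 of 8 for the tail and 5 of 8 for the lung are no result about these genes. The pNSCs and brain NSCs of the first experiment had at most 9 counts of *Dhh*, *Erbb3* or *Mbp* a library. The *Mbp* call for the tail was lost when either replicate of Tail-pNSC or Brain-NSC was left out, and the *Erbb3* call for the lung without Lung-pNSC replicate 2. Mouse line and experiment cannot be told apart here.

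Genes of the same pathways were described by lists. These lists, like the 8 genes, were chosen with results of these data known, and their examples are the called genes of highest level. Of 12 other peripheral myelin genes, 10 were lower in Tail-pNSC than in Tail (median log2 fold change -5.68, against -0.16 over all genes, of which 46.7% were called and 32.6% lower). Among them were *Fa2h*, the hydroxylase of myelin lipids (138 ± 0.634 cpm in Tail against 0.0253 ± 0.0358 cpm in Tail-pNSC), and *Mal* (32.0 ± 0.477 against 0.847 ± 0.337 cpm). In DRG NCSCs 8 of 11 tested were higher than in Wnt1Cre-mTmG brain NSCs (median 2.37, against 0.01 over all genes, of which 36.9% were called and 22.1% higher). They included *Cadm4*, a cell adhesion molecule (684 ± 98.7 against 211 ± 4.07 cpm), and *Mal* (27.2 ± 1.04 against 0.75 ± 0.031 cpm). *Fa2h*, looked up in the NCSCs after its Tail value was seen, stood at 0.638 ± 0.0667 cpm there. Against Lung, Lung-pNSC had 3 of these 12 genes higher and 5 lower (median -0.34, against -0.15 over all genes, of which 20.2% were higher and 34.9% lower). These counts are near the shares of all genes and are no result about the list.

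**Figure D5:**
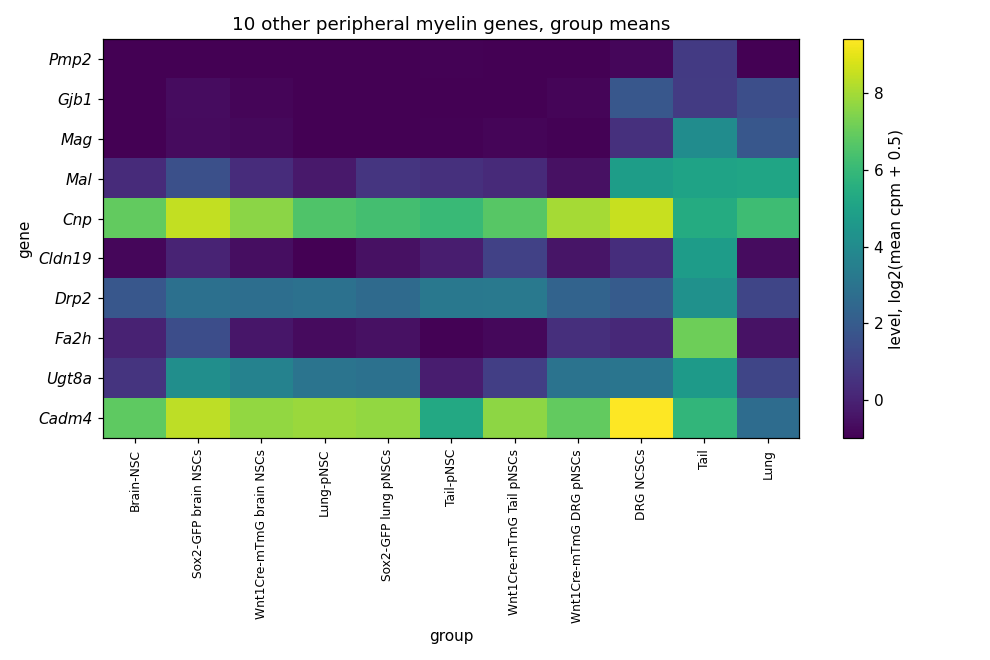
Group means of 10 of the 12 other peripheral myelin genes as log2(mean cpm + 0.5), with the 11 groups in columns. *Fa2h* is brightest in Tail and *Cadm4* in DRG NCSCs; *Cnp* and *Cadm4* are present in each stem cell culture.

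Of the 10 other transcription factors of Schwann cells, 4 were higher and 3 lower in DRG NCSCs than in Wnt1Cre-mTmG brain NSCs (median 0.07, against 0.01 over all genes, of which 36.9% were called and 22.1% higher). *Sox10*, the glial factor that acts with Pou3f1 on *Egr2*, was higher (792 ± 132 against 14.5 ± 1.14 cpm), as were *Zeb2* and *Tead1*. *Egr1* was lower, at 20.4 ± 1.33 against 220 ± 4.34 cpm. In Tail-pNSC against Tail 4 of the 10 were lower and 1 higher (median -0.02, against -0.16 over all genes, of which 46.7% were called and 32.6% lower). These counts are near the shares of all genes and are no result about the list. As single genes, *Egr1* stood at 260 ± 3.36 against 2814 ± 1.03 cpm, *Egr3* at 24.8 ± 2.65 against 169 ± 4.32 cpm and *Nfatc4* at 0.181 ± 0.175 against 73.7 ± 0.291 cpm. *Pou3f2* (Brn2), the relative of *Pou3f1*, was higher (50.7 ± 0.149 against 0.656 ± 0.0254 cpm). Of 6 inhibitors of myelination, 5 were lower and 1 higher in Tail-pNSC than in Tail (median -3.94), and 3 were higher and 1 lower in DRG NCSCs than in Wnt1Cre-mTmG brain NSCs (median 1.21), beside the same shares and medians over all genes.

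The partners of Erbb3 and of related signals were tested as 9 genes. In DRG NCSCs against Wnt1Cre-mTmG brain NSCs 6 were higher and 1 lower (median 1.86, against 0.01 over all genes, of which 36.9% were called and 22.1% higher). *Erbb2*, the co-receptor of Erbb3, stood at 105 ± 3.34 against 26.7 ± 0.423 cpm, *Adgrg6* (Gpr126), an adhesion receptor needed for myelination, at 229 ± 24.1 against 80.2 ± 2.28 cpm, and *Lgi4*, a ligand secreted by Schwann cells, at 215 ± 19.2 against 0.0298 ± 0.0516 cpm. *Erbb2* thus differed far less between the groups than *Erbb3*. In both pNSC groups of the experiment 6 of the 9 were lower than in DRG NCSCs and 1 was higher, and *Erbb2* was among the lower in Tail pNSCs (48.0 ± 0.786 cpm). Over all genes, 37.9% were called and 22.6% lower in Tail pNSCs, and 38.3% and 23.3% in DRG pNSCs.

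Dhh acts through the receptors and targets of hedgehog signalling, tested as 8 genes. DRG NCSCs, with the highest *Dhh*, had 1 of 8 higher and 2 lower than Wnt1Cre-mTmG brain NSCs (median -0.49, against 0.01 over all genes), a share called close to the 36.9% of all genes. *Gli1*, a target of the pathway, stood at 2.99 ± 0.38 against 0.0604 ± 0.0527 cpm, and the co-receptors *Gas1* and *Cdon* were lower. Against the NCSCs, 5 of 8 were higher and 1 lower in Wnt1Cre-mTmG Tail pNSCs, with *Ptch1* at 372 ± 5.03 against 94.8 ± 7.35 cpm, and 4 were higher and 1 lower in DRG pNSCs. Over all genes, 37.9% were called and 22.6% lower in the Tail pNSCs, and 38.3% and 23.3% in the DRG pNSCs. The rest of the genes called were higher in the pNSCs, a smaller share than the lower ones in both comparisons. The highest *Gli1* of any group was in Tail (101 ± 0.871 cpm), where *Dhh* stood at 6.01 cpm.

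Of 10 genes of Schwann cell precursors and non-myelinating Schwann cells, 9 were higher in DRG NCSCs than in Wnt1Cre-mTmG brain NSCs (median 4.72, against 0.01 over all genes, of which 36.9% were called and 22.1% higher). They included *Ngfr* (p75), *Cdh19*, *L1cam* and *Gap43*. In the Wnt1Cre-mTmG pNSCs 9 of 10 were lower than in the NCSCs in each comparison, with medians of -8.96 in Tail pNSCs and -7.42 in DRG pNSCs. Over all genes, 22.6% and 23.3% were lower there (37.9% and 38.3% called). *Cdh19* stood at 942 ± 111 cpm in the NCSCs, 0.274 ± 0.108 in Tail pNSCs, 5.04 ± 0.0708 in DRG pNSCs and 16.4 ± 1.89 in the brain NSCs. In Tail-pNSC against Tail, 8 were lower and 1, *Ncam1*, was higher (177 ± 1.26 against 64.2 ± 0.00276 cpm), where 46.7% of all genes were called and 32.6% lower.

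How the 8 genes varied together was described by Pearson's r of log2(cpm + 0.5) over the 11 group means, which share libraries and depth and carry no p-value. The highest coefficients were between *Mbp* and *Pmp22* (0.928), *Pmp22* and *Erbb3* (0.924), *Mbp* and *Erbb3* (0.912) and *Egr2* and *Ncmap* (0.909). *Pou3f1* was the exception, negative with 6 of the other 7 genes, to -0.643 with *Prx*, and positive with *Dhh* alone (0.276). Of the 17393 genes compared, the one most like *Erbb3* was *Mocos* (0.994), followed by *Capg* and *Lpcat2*. For *Dhh* it was *Tcerg1l* (0.958), then *Slc6a15* and *Slitrk4*, and these 3 were also highest in DRG NCSCs with Wnt1Cre-mTmG brain NSCs second. For *Ncmap* it was *Fam180a* (0.998), at 39.7 cpm in Tail and 1.86 in Lung, then *Gjb5* and *Tnni2*. *Prx* was closest to *Mgst2* (0.991), *Bmp6* and *Adcy4*, each highest in Lung with Tail second. *Mbp* was closest to *Hyal3* (0.992), *Slc14a1* and *Mob2*, *Pmp22* to *Arhgap28* (0.989), *Calhm2* and *Marveld1*, and *Egr2* to *Bcl10* (0.953), *Sertad1* and *Mpzl3*. *Pou3f1* had the least similar neighbours, *Trio* (0.903), *Mapk6* and *Map9*.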

How the data were processed

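Polyadenylated RNA of 28 mouse samples was sequenced single-end (NEBNext Ultra libraries, NextSeq500). The authors aligned the reads to GRCm38 with HISAT2 2.2.1, also ran Cufflinks 2.2.1, and deposited raw counts per gene from htseq-count 1.99.2. The annotation release, strand setting and counting mode are not given in the sources used here. All columns were mapped to a sample by name.

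Counts were tested with edgeR 4.0.16 (R 4.3.3; limma 3.58.1): filterByExpr (minimum count 10, minimum total 15), TMM scaling and the 2-sided quasi-likelihood test, with Benjamini-Hochberg adjustment over all genes tested. A gene was called at an adjusted p under 0.05 and a fold change of at least 2. The SE of a log2 fold change is its size divided by the square root of the quasi-likelihood F. On few counts it can be smaller than counting error. Separate fits held the 5 groups without a named line, the 4 groups of the Wnt1Cre-mTmG experiment, and the Sox2-GFP groups with Lung. 1 fit of all 28 samples gave the comparisons of DRG NCSCs with each group and the differences between experiments. These differences were called at an adjusted p under 0.05 alone. The fits tested 16948, 14448, 16234 and 17393 genes. The filter left out *Ncmap* in the Wnt1Cre-mTmG experiment, where *Erbb3* passed through its level in DRG NCSCs. In the fit of the groups without a named line *Dhh*, *Erbb3*, *Mbp* and *Ncmap* passed through Tail or Lung, and in the Sox2-GFP fit *Dhh* and *Ncmap* through Lung, so a difference from those groups was built in. In the fit of all 28 samples *Ncmap* was tested although each brain NSC and pNSC library had under 10 counts of it. Each ratio of summed counts is for a comparison in which a group had at most 3 counts in each library. Its 95% interval covers counting error only. Levels are cpm with TMM factors over all samples, and levels per kb divide by the union of GENCODE exons (GRCm38). Transcription start windows came from a RefSeq table of GRCm38.p6.

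Total counts per sample ran from 9808246 to 22637031, so that 3 counts stood for 0.13 to 0.296 cpm. The scripts were tested on simulated counts before use.

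The genes and all lists were chosen with earlier results of these data known. Besides the 8 genes, the text names the 3 genes with the most similar pattern for each, and from each list up to 4 called genes of highest level per comparison. Some list genes are not reported here by name. *Fa2h* in DRG NCSCs and *Rhebl1* were looked up after values were seen, and the antisense genes were named for their overlap. DESeq2 1.42.0, upper-quartile scaling, no filter, no limit on the fold change, only the groups compared, all samples in 1 fit, the replicate number as a block and leaving out each replicate were tried as alternatives. Replicate numbers did not pair the samples.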

Additional observations from a re-analysis of the deposited data

Results flagged for a closer look

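The difference between pNSCs and brain NSCs was itself compared between experiments for the tail and for the lung, as an interaction in the fit of all 28 samples (edgeR, adjusted over 17393 genes). The values below are the log2 fold change in the reporter line minus that in the groups without a named line. Each difference also holds the other mouse line and, for the lung, possibly another age, which cannot be told apart from the experiment. For the tail, 48.7% of all genes tested differed in this way, and for the lung 46.9%.

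For Tail pNSCs against brain NSCs, *Dhh* had the largest value, with an interaction of -6.95 ± 0.82 (edgeR adjusted p = 3.63e-09). Part of this value is the difference of Tail-pNSC from Brain-NSC, on 5 and 9 counts against 0 and 2. Nothing is read from its size or rank. It was 15.4 cpm in the Wnt1Cre-mTmG brain NSCs and 0.838 in their Tail pNSCs, but 0.0487 and 0.371 cpm in Brain-NSC and Tail-pNSC. *Pou3f1* differed by -2.87 ± 0.091 (adjusted p = 2.17e-25): Tail-pNSC lay at the level of Brain-NSC, and the Wnt1Cre-mTmG Tail pNSCs lay below their brain NSCs in each sample. *Prx* differed by 1.16 ± 0.16 (9.88e-08), *Egr2* by -1.06 ± 0.18 (2.98e-06) and *Pmp22* by -0.39 ± 0.089 (0.000299). *Mbp* differed by -1.78 ± 0.67 (adjusted p = 0.0343), on 3 to 6 counts a library in Tail-pNSC and Brain-NSC. That call was lost when any of these 4 libraries was left out (-1.82 to -1.74).

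For lung pNSCs against brain NSCs, *Egr2* had an interaction of 2.33 ± 0.19 (adjusted p = 2.81e-13). It was higher in all 3 Sox2-GFP lung pNSC samples than in their brain NSCs and at 7.80 and 7.63 cpm in Lung-pNSC and Brain-NSC. *Erbb3* differed by -3.75 ± 0.94 (0.00102), with 1 and 2 counts in the Brain-NSC libraries, and without Lung-pNSC replicate 2 its call was lost (-2.79). *Mbp* differed by -2.96 ± 0.62 (0.000114), *Prx* by 0.77 ± 0.15 (4.68e-05) and *Pou3f1* by -0.63 ± 0.11 (4.61e-06), the last with lower levels in the pNSCs of both experiments. The Lung-pNSC and Brain-NSC libraries had at most 9 counts of *Mbp*.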

How the results depend on the processing

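Of 202 fold changes, DESeq2 left 200 with the same direction and side of the threshold, the fit without a filter 201, upper-quartile scaling 201, the fit of all 28 samples 106 of 106, the fit of only the groups compared 89 of the 89 it could test, and leaving out 1 replicate 1084 of 1132 values. Depth limits values on at most 12 counts a library, where some differences of *Dhh*, *Erbb3*, *Mbp* and *Ncmap* turned with 1 library. Replicate numbers were not a pairing: correlations of same-numbered samples lay between -0.0147 and 0.0349, none of them over 0.1, and samples correlated best with their own number in 10 of 20, 11 of 18 and 1 of 3 cases. With the replicate block, 121 of 122 results kept their side, and *Prx* in Wnt1Cre-mTmG Tail pNSCs against brain NSCs was called at 1.00.

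With no limit on the fold change, the genes called rose from 1 to 2 in Tail-pNSC against Brain-NSC, from 0 to 2 in Lung-pNSC against Brain-NSC, from 2 to 4 in Tail-pNSC against Lung-pNSC, from 2 to 5 in Wnt1Cre-mTmG Tail pNSCs and in DRG pNSCs against brain NSCs, and from 1 to 6 between those pNSCs. Without the limit more of all genes are called too, and that share is not given here. Nothing about these genes is read from the rise in their counts. With only the groups compared, 0 were called in Tail-pNSC against Brain-NSC and against Lung-pNSC, where *Dhh*, *Erbb3*, *Mbp* and *Ncmap* were then not tested. Leaving out 1 replicate gave 0 to 1, 0 to 1 and 1 to 2 called in the first 3 of these comparisons and 1 to 2 between Wnt1Cre-mTmG Tail and DRG pNSCs.

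The sign of *Egr2* in DRG NCSCs against Wnt1Cre-mTmG brain NSCs (all 28 samples) turned to 0.012 with DESeq2. Leaving out 1 replicate turned the sign of uncalled values, which then ran from -0.0536 to 0.00767 for *Pou3f1* in Tail-pNSC against Brain-NSC, from -0.0788 to 0.12 for *Egr2* and -3.05 to 2.22 for *Dhh* in Lung-pNSC against Brain-NSC, from -0.51 to 0.087 for *Mbp* and -1.69 to 1.18 for *Ncmap* in Tail-pNSC against Lung-pNSC, from -0.32 to 0.18 for *Erbb3* in Wnt1Cre-mTmG Tail pNSCs against brain NSCs, and from -0.14 to 0.0655 (0.0667 with all 28 samples) for *Egr2* in DRG NCSCs against those. Differences between experiments ran from -2.92 to 0.54 for *Ncmap* (tail) and from -4.16 to 1.06 for *Dhh* (lung). The cause was not tested.

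Calls were gained, beside *Prx* as given above, for *Mbp* in Wnt1Cre-mTmG Tail against DRG pNSCs without DRG pNSCs replicate 3 (1.29), and in Lung-pNSC against Brain-NSC for *Erbb3* without Lung-pNSC replicate 1 (2.47) and *Ncmap* without replicate 2 (3.19). In the lung difference between experiments *Ncmap* was called without Lung-pNSC replicate 2 (-3.74), and *Pmp22* with DESeq2 (-0.28), upper-quartile scaling (-0.27), no filter (-0.26) and in 6 fits without 1 replicate (-0.35 to -0.27).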

Other observations

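Levels of *Sox10* and *Cdh19* also varied between the cultures. *Sox10* stood at 14.5 ± 1.14 cpm in Wnt1Cre-mTmG brain NSCs, 9.44 ± 0.94 cpm in Sox2-GFP brain NSCs and 7.19 ± 0.432 cpm in Wnt1Cre-mTmG Tail pNSCs (SD, n = 3 each), but at 0.0741 ± 0.033 cpm in Brain-NSC (n = 2) and at 0.0558 ± 0.079 to 0.696 ± 0.321 cpm in the other 4 pNSC groups. *Cdh19*, a cadherin of Schwann cell precursors, stood at 125 ± 1.17 cpm in Sox2-GFP lung pNSCs and 50.1 ± 0.142 cpm in Lung-pNSC, but at 0.901 ± 0.342 cpm in Tail-pNSC and 0.274 ± 0.108 cpm in Wnt1Cre-mTmG Tail pNSCs. In the Sox2-GFP lung pNSCs 8 of 11 tested peripheral myelin genes were lower than in their brain NSCs (9.99% of all genes were), with *Cnp* at 78.7 ± 2.61 against 348 ± 3.24 cpm. *Cnp* is also expressed in the oligodendrocyte lineage, of whose 12 markers 9 had a mean of at least 1 cpm in those brain NSCs.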
